A study of Homo sapiens with 10 samples.

Results

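Polycomb group proteins keep developmental genes silent, and 9 of their genes were examined in RPE-1 cells, an immortalized line of human retinal pigment epithelium, after 4 h of treatment with sulforaphane (SFN), an isothiocyanate made from broccoli glucosinolates. The members were the chromobox genes CBX2, CBX6, CBX7 and CBX8, the RING finger genes RING1, RNF2 and BMI1, and the methyltransferase genes EZH1 and EZH2. They were picked by gene symbol, 9 of 28380 genes in the counts, and they were chosen with their difference between SFN and DMSO already known, so their fold changes are given as a description, without a test. The DMSO group was RPE-1 cells given the vehicle DMSO, and the SFN group was the same line given 25 µM SFN, with 5 replicates in each group and 50000 cells per replicate. All cells carried the telomerase gene that immortalizes the line, and a single line was used.

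Polycomb proteins work in a pair of complexes. PRC2, with EZH1 or EZH2 as its enzyme, methylates histone H3 at lysine K27, and PRC1, with RING1 or RNF2 as its ubiquitin ligase, marks histone H2A. In canonical PRC1 a CBX protein binds the methyl mark through its chromodomain, a PHC protein links complexes to each other, and BMI1 or PCGF2 partners the ligase; variant PRC1 complexes carry RYBP or YAF2 in place of a CBX protein and are told apart by their PCGF subunit. In many epithelial cells and fibroblasts, BMI1, CBX7 and CBX8 are known for holding down the CDKN2A locus.

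Libraries were read from the 3′ end of transcripts, and the total count per library ran from 12375860 to 20666692. Levels are CPM (counts scaled to a fixed library total) after TMM scaling, a correction for library composition. Of 13378 genes with enough counts to test, 1862 were lower and 1214 higher in SFN at an adjusted p under 0.05 (edgeR quasi-likelihood test), and 2163 and 819 with scaling by library size alone. One library, DMSO replicate 1, stood apart from the others of its group: its mean Spearman correlation with them was 0.935, against 0.979 to 0.982 for DMSO replicates 2 to 5, so the members' fold changes and the calls that it changes are also given without it, when 3193 genes were lower and 3058 higher. Of 12 markers of retinal pigment epithelium, RPE65, RLBP1 and TTR had at most 4 counts in any library, LRAT at most 12 and PMEL at most 29. BEST1 had 97 to 1244 and OTX2 had 107 to 299 counts per library, and KRT8, KRT18, EZR and TJP1 were well counted. Of 11 markers of other cell types, 5 could be matched (PTPRC of blood, PECAM1 and CDH5 of endothelium, RBFOX3 of neurons and EPCAM of other epithelia), and they had at most 9 counts in any library.

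Promoter sequence was held for 7 of the 9 members (RefSeq, GRCh38.p14), and 4 are shown because they form 2 paralog pairs in which one gene fell further than the other, CBX7 against CBX6 and RNF2 against RING1. Each runs 5′ to 3′ up to the start of transcription, with matches to the searched motifs in capitals.
CBX7 (chr22:39152681-39152930, minus strand, 250 bases): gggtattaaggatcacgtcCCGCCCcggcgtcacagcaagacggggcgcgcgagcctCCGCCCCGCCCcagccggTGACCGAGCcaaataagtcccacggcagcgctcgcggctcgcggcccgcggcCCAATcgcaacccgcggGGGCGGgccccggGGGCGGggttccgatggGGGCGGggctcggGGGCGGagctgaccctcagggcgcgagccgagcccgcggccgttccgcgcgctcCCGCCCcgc
CBX6 (chr22:38872250-38872466, minus strand, 217 bases): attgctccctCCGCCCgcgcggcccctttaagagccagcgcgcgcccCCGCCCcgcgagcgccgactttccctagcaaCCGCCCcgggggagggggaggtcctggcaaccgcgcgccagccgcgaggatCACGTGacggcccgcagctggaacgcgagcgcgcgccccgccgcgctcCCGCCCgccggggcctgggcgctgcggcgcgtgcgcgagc
RNF2 (chr1:185045308-185045525, plus strand, 218 bases): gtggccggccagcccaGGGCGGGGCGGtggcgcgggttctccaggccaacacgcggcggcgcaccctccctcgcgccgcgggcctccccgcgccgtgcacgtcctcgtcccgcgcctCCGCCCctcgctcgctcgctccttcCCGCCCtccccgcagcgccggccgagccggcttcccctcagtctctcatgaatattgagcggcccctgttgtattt
RING1 (chr6:33208250-33208499, plus strand, 250 bases): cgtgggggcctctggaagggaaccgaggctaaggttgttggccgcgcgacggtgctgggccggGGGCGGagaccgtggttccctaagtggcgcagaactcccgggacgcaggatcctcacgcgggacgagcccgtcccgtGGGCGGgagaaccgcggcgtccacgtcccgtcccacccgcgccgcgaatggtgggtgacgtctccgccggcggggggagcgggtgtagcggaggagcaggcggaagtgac
Motifs were searched on both strands in the 250 bases before each start, namely GGGCGG (GC box), CACGTG (E-box), TGACGTCA (CRE), TGANNNNGC (antioxidant response element core), TTTNGCGC (E2F) and CCAAT; overlapping matches run together in the capitals. The GC box was found in all 7 members with an entry and in 42.6% of all 35116 promoters. The E-box was found in CBX6 and BMI1 and in 6.34% of all promoters. The antioxidant response element core and CCAAT were both found in CBX7 and EZH2 and in 35.2% and 32.0% of all promoters. None of these 7 members had a match to the CRE or E2F letters, which 1.65% and 1.51% of all promoters held. CBX2 and CBX8, which fell furthest, had no promoter entry and were not searched for any motif. What the 7 shared was base composition, with 67.6% to 91.6% G and C where the median promoter had 58.0%, and a ratio of observed to expected CpG from 0.922 to 1.15 where the median was 0.558. This was not particular to the members. Entries of other called Polycomb genes ran from 50.8% (BCOR) to 84.4% (BCORL1) G and C, and from 0.316 (BCOR) to 1.34 (AUTS2) in that ratio. The motif hits are matches of letters, not mapped binding sites.

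CBX2 was the member that fell furthest. It encodes a chromodomain subunit of canonical PRC1 that compacts chromatin, and lies at chr17:79778148-79787983 on the plus strand (GENCODE 44, GRCh38). Its level in DMSO replicates 1 to 5 was 8.22, 9.52, 9.50, 10.8 and 7.93 CPM, and in SFN replicates 1 to 5 it was 0.715, 1.12, 1.19, 0.810 and 0.636 CPM. Every DMSO library was above every SFN library, and DMSO replicate 1 lay inside the range of the other controls. The mean was 9.20 ± 1.17 CPM (SD, n = 5) in DMSO and 0.895 ± 0.248 CPM (SD, n = 5) in SFN, a log2 fold change of -3.37 ± 0.20 (SE), or 10.3-fold lower, and -3.42 without DMSO replicate 1. The SFN level rested on 9 to 16 counts per library and 62 counts in all (95% exact Poisson interval 47.5 to 79.5, counting error only), against 825 counts in DMSO (769.7 to 883.3). Of all genes tested, 0.112% had a lower log2 fold change. Fewer cells holding the mRNA and less of it per cell cannot be told apart in bulk samples.

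CBX8, which lies beside CBX2 and encodes a PRC1 chromodomain subunit of the same family, was next. In DMSO replicates 1 to 5 it was at 17.4, 11.1, 10.2, 11.5 and 7.76 CPM, and in SFN replicates 1 to 5 at 1.43, 2.24, 1.86, 2.56 and 2.19 CPM. The groups did not overlap, although DMSO replicate 1 was the highest control. The log2 fold change of CBX8 was -2.49 ± 0.24 (SE), or 5.63-fold lower, and -2.31 without that library.

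CBX7, a chromodomain subunit known for CDKN2A silencing, had 55 to 71 counts per DMSO library. Its DMSO levels were 4.30, 3.01, 3.58, 4.28 and 3.26 CPM in replicates 1 to 5, and its SFN levels were 1.97, 2.42, 1.56, 2.29 and 2.19 CPM. The lowest control was still above the highest treated library. The log2 fold change of CBX7 was -0.82 ± 0.19 (SE), and -0.76 without DMSO replicate 1. CBX6 (chr22:38861422-38872249) and CBX7 (chr22:39120167-39152680) lie on the same arm and strand of chromosome 22. CBX6 stood at 196, 104, 113, 101 and 109 CPM in DMSO replicates 1 to 5 and at 91.6, 106, 109, 85.5 and 89.1 CPM in the SFN replicates. The groups overlapped, and the log2 fold change of CBX6 was -0.37 ± 0.18 (SE) with DMSO replicate 1, the highest library, and -0.16 without it.

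Among the ligase genes, RNF2 (RING1B), the main E3 ligase of PRC1 in many cells, was lower in every SFN library. Its DMSO levels were 20.4, 23.6, 19.7, 23.7 and 21.4 CPM and its SFN levels 12.8, 13.98, 16.2, 13.9 and 13.5 CPM, a log2 fold change of -0.63 ± 0.11 (SE) and -0.66 without DMSO replicate 1. RING1, its paralog, ran from 20.01 to 26.9 CPM in DMSO and from 17.2 to 23.8 CPM in SFN. The RING1 groups overlapped, with a log2 fold change of -0.09 ± 0.13 (SE) and -0.02 without DMSO replicate 1. BMI1 (PCGF4), which stimulates the ligase, ran from 48.1 to 72.7 CPM in DMSO and from 43.8 to 56.2 CPM in SFN, with a log2 fold change of -0.19 ± 0.13 (SE) and -0.10 without DMSO replicate 1. A read-through gene of COMMD3 and BMI1 shares BMI1 sequence and had at most 3 counts in a library.

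The methyltransferase genes were close to level. EZH2, the PRC2 enzyme of dividing cells, stood at 67.8, 107, 101, 109 and 106 CPM in DMSO replicates 1 to 5 and at 89.7, 95.9, 88.2, 91.9 and 97.4 CPM in SFN. DMSO replicate 1 was the lowest of all 10 libraries for EZH2, and the other 4 controls were above every treated library. The log2 fold change of EZH2 was -0.08 ± 0.13 (SE), and -0.20 ± 0.07 (SE) without that library. EZH1, the PRC2 enzyme of resting cells, was at 9.15 CPM in DMSO replicate 1, at 20.1 to 23.4 CPM in the other controls and at 15.3 to 20.5 CPM in SFN. The log2 fold change of EZH1 was -0.13 ± 0.22 (SE), -0.31 without that library and 0.04 with quantile normalization.

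Across the members, CBX2, CBX8, CBX7 and RNF2 passed an adjusted p under 0.05 with a lower level in SFN, 4 of 9, where 13.9% of all genes tested passed in that direction and 23.0% in either. Without DMSO replicate 1 EZH1 and EZH2 also passed, 6 of 9, where 23.5% of all genes passed in that direction and 46.1% in either. The same 4 members had groups that did not overlap, where 19.9% of all genes tested had none. CBX2 and CBX8 also fell over 2-fold, as 5.76% of all genes did. Since the members were chosen on this contrast, nothing is read from these shares. The median log2 fold change was -0.37 over the 9 members and -0.03 over all genes tested.

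**Figure D1:**
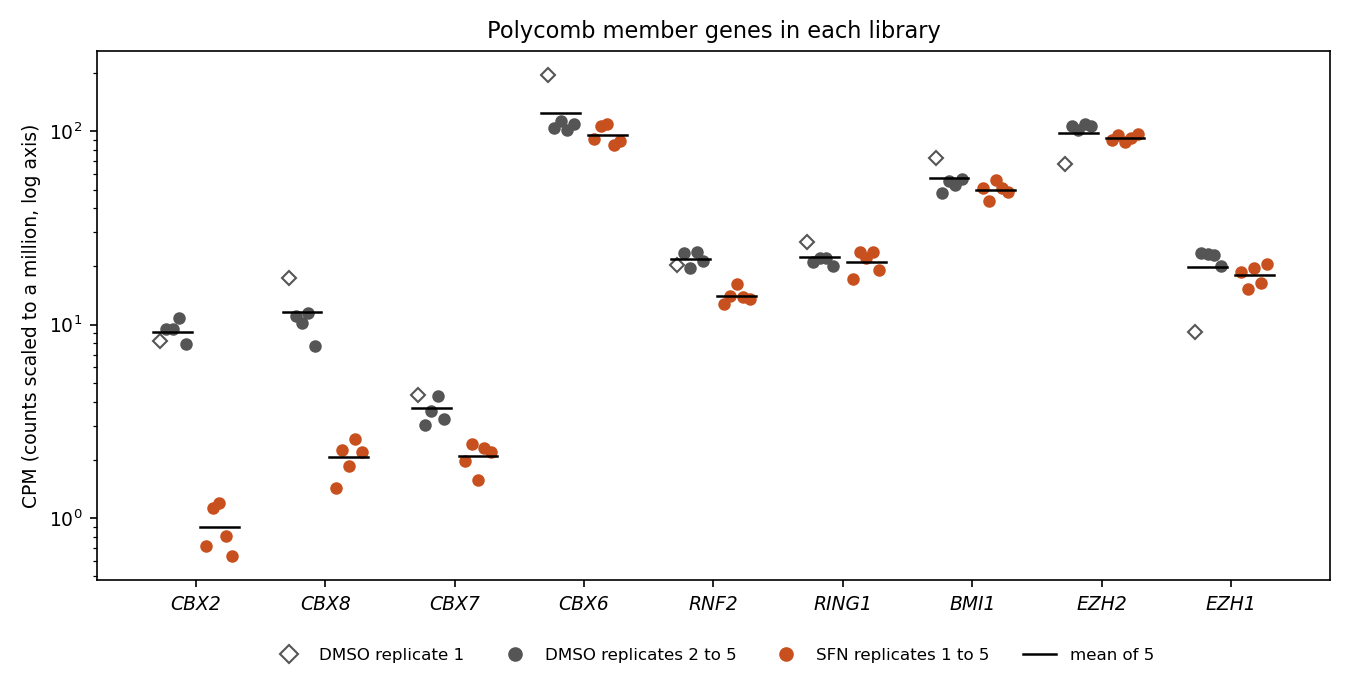
Level of each of the 9 member genes in each library, in CPM on a log axis, with grey for DMSO, orange for SFN, an open diamond for DMSO replicate 1 and a black line at the mean of 5. The SFN points of CBX2, CBX8, CBX7 and RNF2 lie below all DMSO points, while those of RING1, BMI1 and CBX6 overlap them and DMSO replicate 1 stands apart for CBX6, EZH2 and EZH1.

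The counts of paralogs were also compared within each library, which takes out any scaling between libraries. The log2 ratio of CBX2 to CBX6 went from -3.72 ± 0.52 (SD, n = 5) in DMSO to -6.73 ± 0.26 (SD, n = 5) in SFN, a difference of -3.01. The log2 ratio of CBX2 to CBX7 differed by -2.54, again with no overlap between groups. CBX2 and CBX8 stayed closer to each other, with a difference of -0.89 in their log2 ratio and groups that overlapped. The CBX7 to CBX8 ratio went the other way, by 1.64, as CBX8 fell further. For the ligases the RING1 to RNF2 log2 ratio was 0.04 ± 0.24 (SD, n = 5) in DMSO and 0.58 ± 0.17 (SD, n = 5) in SFN, without overlap. The EZH1 to EZH2 ratio differed by 0.0047 and the BMI1 to PCGF2 ratio by -0.09, both with overlapping groups. Both differences were smaller than the SD pooled over the groups, 0.26 and 0.34. They include DMSO replicate 1, which had the lowest EZH1 to EZH2 log2 ratio (-2.88) of the controls. It also had their highest BMI1 to PCGF2 log2 ratio (1.90).

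Of the counts that the 4 CBX members took together in a library, CBX2 had 3.64% to 8.47% in DMSO and 0.675% to 1.05% in SFN. CBX8 had 6.08% to 8.94% in DMSO and 1.49% to 2.81% in SFN. The share of CBX6 was 79.2% to 86.8% in DMSO and 93.8% to 95.9% in SFN, and the groups did not overlap. The shares of CBX7 did overlap. The summed level of the 4 genes was 149 ± 43.2 CPM (SD, n = 5) in DMSO and 101 ± 10.6 CPM (SD, n = 5) in SFN, and it was 130 ± 4.63 CPM (SD, n = 4) in DMSO without replicate 1, so the CBX6 share is of a smaller total. Counts from the 3′ end were not divided by transcript length, and only the same gene is compared between groups here.

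**Figure D2:**
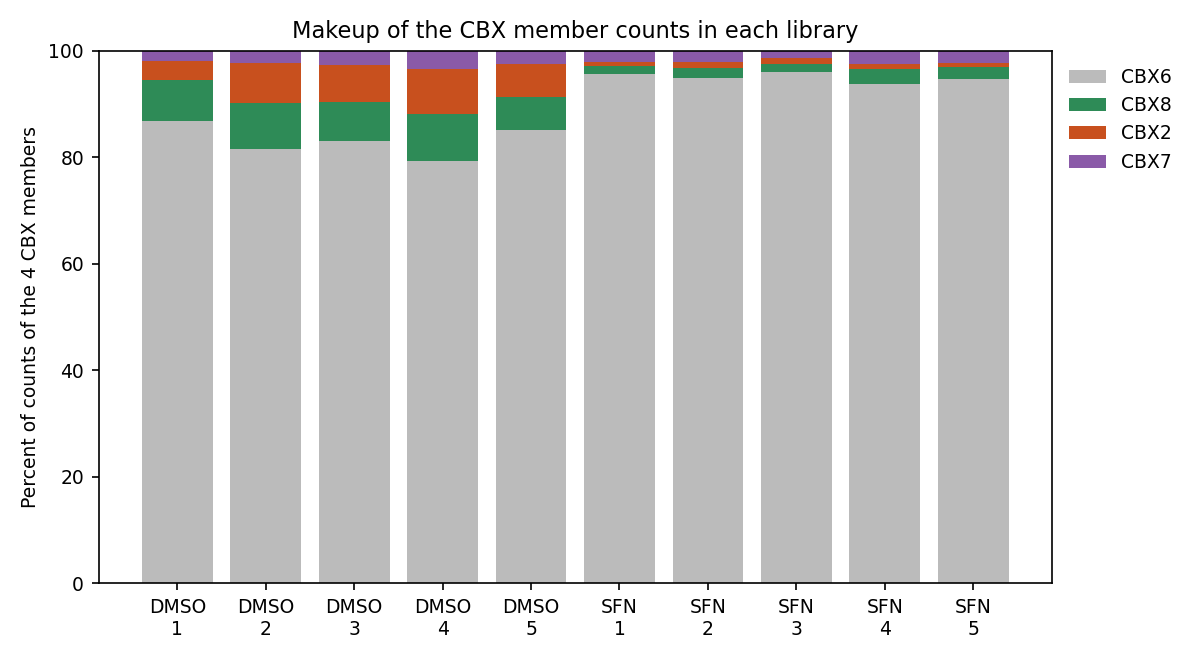
Percent of the summed counts of CBX2, CBX6, CBX7 and CBX8 that each gene took in each of the 10 libraries, as stacked bars. The orange CBX2 band is 3.64% to 8.47% in DMSO and at most 1.05% in SFN, and the grey CBX6 band is larger in every SFN library.

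CBX2 (plus strand) and CBX8 (chr17:79792132-79801683, minus strand) are neighbours on chromosome 17 and face each other with their 3′ ends 4.15 kb apart.

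Patterns were compared by the root mean square difference in log2 of CPM plus 0.5, centred on the mean of the 10 libraries. The genes most like CBX2 among 2516 with a mean level within 2-fold of it were TFAP4 (0.345), BMF (0.346), PATZ1 (0.357), TXNIP (0.366) and MYB (0.369). The added 0.5 CPM shrinks falls to low levels, and the log2 fold changes of these genes ran from -4.53 (BMF) to -2.72 (PATZ1). TFAP4 and MYB encode transcription factors, PATZ1 a BTB zinc finger protein, BMF a pro-apoptotic BH3-only protein and TXNIP a thioredoxin-binding arrestin. The median difference over all 2516 genes was 1.39, and that of CBX8 was 0.460. The difference between SFN and DMSO was not taken out of this measure. A gene of similar level with a similar fall therefore counts as alike, and nothing further is read from these matches.

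Among 47 other Polycomb genes, from lists of PRC1, PRC2 and deubiquitinase subunits and H3K27 demethylases, more fell than rose. The lists held 49 genes, of which 47 could be matched. All 47 had enough counts to test, and 10 were lower (21.3%, against 13.9% of all genes) and 5 higher (10.6%, against 9.07% of all genes). Without DMSO replicate 1 these were 19 lower (40.4%, against 23.5%) and 7 higher (14.9%, against 22.5%). Their median log2 fold change was -0.13, beside -0.03 over all genes. The lists were made with earlier results of these data known, and no test of the lists was made.

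In variant PRC1, several scaffold and targeting subunits fell. MGA, a MAX-binding scaffold of the PCGF6 complex, had the largest fall of the 47 genes, from 29.5 to 50.3 CPM in DMSO to 3.54 to 8.33 CPM in SFN, or -2.77 ± 0.22 (SE) on the log2 scale (edgeR adjusted p = 5.8e-06). L3MBTL2 of the same complex, which the naming rule did not pick, fell by 0.56 on the log2 scale (edgeR adjusted p = 0.0011). Other listed PRC1 genes outside the rule did not pass with all 10 libraries. By log2 fold change these included E2F6 (-0.02), SCMH1 (-0.02), SCML2 (-0.13), WDR5 (-0.13), USP7 (0.09), FBRSL1 (0.14), DCAF7 (0.14) and FBRS (0.51). DCAF7 passed without DMSO replicate 1 (0.38, edgeR adjusted p = 0.0014). BCOR, the corepressor that anchors the PCGF1 complex, fell by 2.34 ± 0.19 (SE) on the log2 scale (edgeR adjusted p = 5.6e-06), from 27.1 to 48.9 CPM in DMSO to 6.38 to 10.03 CPM in SFN. BCORL1, its homolog, fell by 1.92 ± 0.30 (SE) on the log2 scale (edgeR adjusted p = 0.00077). KDM2B, the protein that brings the PCGF1 complex to unmethylated CpG islands, fell by 1.08 ± 0.13 (SE) on the log2 scale (edgeR adjusted p = 0.00013). AUTS2, a neurodevelopmental gene whose product joins PCGF3 and PCGF5 complexes, fell by 1.25 ± 0.18 (SE) on the log2 scale (edgeR adjusted p = 0.00035).

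The PCGF genes themselves did not pass the test with all 10 libraries. The log2 fold change was -0.41 ± 0.16 (SE) for PCGF1 (edgeR adjusted p = 0.097) and -0.22 ± 0.09 (SE) for PCGF6 (edgeR adjusted p = 0.12), and it was -0.10 for PCGF2, 0.06 for PCGF3 and -0.02 for PCGF5. Without DMSO replicate 1 these last values were -0.17, -0.07 and -0.16. PCGF6 passed without DMSO replicate 1 (-0.23, edgeR adjusted p = 0.046), and PCGF1 passed with scaling by library size alone (-0.48).

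Other PRC1 genes rose. RYBP, which takes the place of a CBX protein in variant PRC1, went from 22.2 to 38.7 CPM in DMSO to 54.2 to 68.3 CPM in SFN, a log2 fold change of 0.89 ± 0.15 (SE, edgeR adjusted p = 0.0011). PHC2, a polyhomeotic subunit of canonical PRC1, rose by 0.51 ± 0.12 (SE) on the log2 scale (edgeR adjusted p = 0.011), and SCML1, a sex comb on midleg homolog, by 0.60 ± 0.14 (SE) on the log2 scale (edgeR adjusted p = 0.0099). PHC3 had a log2 fold change of 0.24 ± 0.23 (SE, edgeR adjusted p = 0.52), and of 0.06 without DMSO replicate 1. PHC1 had one of -0.28 ± 0.26 (SE, edgeR adjusted p = 0.50), and of -0.48 without DMSO replicate 1 (edgeR adjusted p = 0.010). YAF2, the paralog of RYBP, was at 57.9 CPM in DMSO replicate 1, at 13.98 to 16.7 CPM in the other controls and at 14.6 to 18.6 CPM in SFN.

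In PRC2, 4 of 11 other subunit genes passed the test, 3 lower and 1 higher, where 13.9% of all genes were lower and 9.07% higher, and none of these was a core subunit. Without DMSO replicate 1, 7 of 11 passed, 5 lower and 2 higher, where 23.5% and 22.5% of all genes did, and the core genes SUZ12 and EED were among them. JARID2, which guides PRC2 to its targets, went from 31.3 to 60.8 CPM in DMSO to 11.9 to 14.8 CPM in SFN, a log2 fold change of -1.86 ± 0.17 (SE, edgeR adjusted p = 1.6e-05). AEBP2, its partner in the same form of PRC2, had a log2 fold change of -0.76 ± 0.17 (SE, edgeR adjusted p = 0.0068). EPOP, an elongin-binding subunit of the other form, had a log2 fold change of -1.49 ± 0.21 (SE, edgeR adjusted p = 0.00032). PHF1, a Polycomb-like protein of that other form, rose from 11.3 to 13.7 CPM in DMSO to 20.6 to 27.9 CPM in SFN. The log2 fold change of PHF1 was 0.96 ± 0.12 (SE, edgeR adjusted p = 0.00013). The listed PRC2 gene MTF2 was at 0.03 ± 0.18 (SE, edgeR adjusted p = 0.93). It passed as higher without DMSO replicate 1 (0.26, edgeR adjusted p = 0.021). PHF19, also listed, was at -0.15 ± 0.09 (SE, edgeR adjusted p = 0.28). Of the core, SUZ12, the scaffold of the complex, had a log2 fold change of -0.24 ± 0.10 (SE, edgeR adjusted p = 0.10) and passed without DMSO replicate 1 (edgeR adjusted p = 0.036). EED, which reads the methyl mark, had a log2 fold change of -0.61 ± 0.23 (SE, edgeR adjusted p = 0.083) with DMSO replicate 1 at 121 CPM and the other controls at 48.5 to 57.8 CPM. Without that library the log2 fold change of EED was -0.29 (edgeR adjusted p = 0.017). The histone chaperone genes RBBP4 and RBBP7 had log2 fold changes of 0.20 ± 0.09 (SE, edgeR adjusted p = 0.13) and 0.08 ± 0.09 (SE, edgeR adjusted p = 0.59). RBBP4 ran from 220.9 to 235.4 CPM in DMSO and from 249.3 to 283.6 CPM in SFN. Its groups did not overlap, as for 19.9% of all genes tested. RBBP4 passed in 1 of 17 alternative analyses, the DESeq2 Wald test (adjusted p = 0.0015). SUZ12 and RBBP4 have near-identical pseudogene copies, and how reads shared between copies were counted is not given in the sources used here.

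Among genes of the deubiquitinase that removes the PRC1 mark and of the H3K27 demethylases, MBD5, a subunit partner of the deubiquitinase, was lower (log2 fold change -0.70 ± 0.20, SE, edgeR adjusted p = 0.026) and lost its call in 8 of 17 alternative analyses, while it was at -0.83 without DMSO replicate 1 (edgeR adjusted p = 0.00042). KDM6A (UTX), a demethylase of the PRC2 mark that the naming rule did not pick, was higher (0.54 ± 0.13, SE, edgeR adjusted p = 0.013) and lost its call with scaling by library size alone. KDM6B, a demethylase of the same mark, went the other way, at -0.51 ± 0.27 (SE, edgeR adjusted p = 0.21). Without DMSO replicate 1 KDM6B passed at -0.68 (edgeR adjusted p = 0.014). Apart from MBD5 and KDM6A, none of these 11 genes passed with all 10 libraries. Without DMSO replicate 1, 6 of the 11 were lower and 1 higher, where 23.5% of all genes were lower and 22.5% higher.

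**Figure D3:**
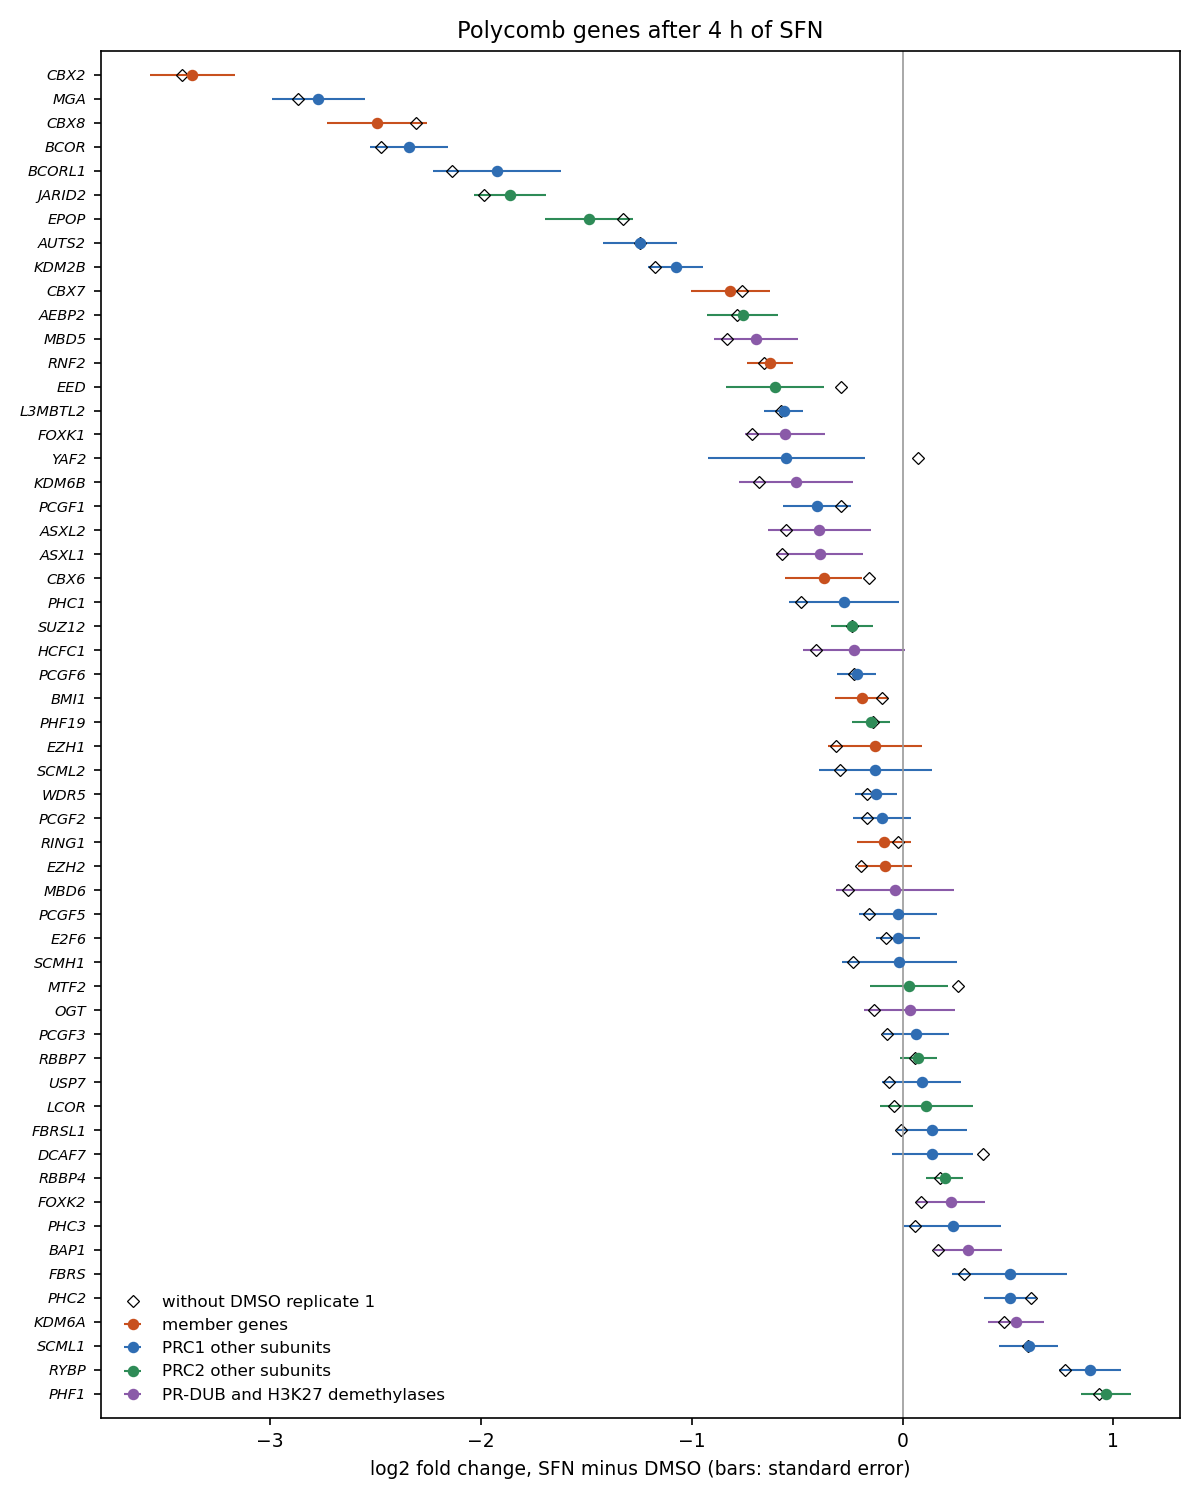
Log2 fold change (SFN minus DMSO) of the 9 members and 47 other Polycomb genes, ordered by value, as filled points with the standard error and coloured by list, with open diamonds for the fit without DMSO replicate 1. CBX2, MGA, CBX8 and BCOR lie at the low end from -3.37 to -2.34, and PHF1 and RYBP at the high end at 0.96 and 0.89.

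The chromobox genes of the HP1 family bind a different methyl mark and were listed apart from the Polycomb genes. Their log2 fold changes were 0.20 ± 0.13 (SE) for CBX1, 0.01 ± 0.19 (SE) for CBX3 and -0.0016 ± 0.18 (SE) for CBX5. None passed the test with edgeR (lowest adjusted p = 0.31) or DESeq2, and 0 had an unadjusted p under 0.05. CBX3 passed without DMSO replicate 1 (0.24, edgeR adjusted p = 0.033). The HOX genes are textbook Polycomb targets. Of 39, 11 could be matched, and none had enough counts to test, with at most 14 in any library. Of 18 proliferation genes, 2 were lower and 1 higher, against 13.9% and 9.07% of all genes, with CCNE2, the S-phase cyclin E2, at -2.15 ± 0.15 (SE, edgeR adjusted p = 2.5e-06), CDC6, a replication licensing factor, at -0.71 ± 0.09 (SE, edgeR adjusted p = 0.00018), and the proliferation marker MKI67 at -0.43 ± 0.28 (SE, edgeR adjusted p = 0.32). Without DMSO replicate 1, 5 were lower and 4 higher, against 23.5% and 22.5% of all genes. MKI67 then passed at -0.62 (edgeR adjusted p = 0.015) and CDK1, the mitotic kinase, at 0.76 (edgeR adjusted p = 2.2e-05). With all 10 libraries the higher gene was AURKA, a mitotic kinase (0.40 ± 0.09, SE, edgeR adjusted p = 0.0065), named after its value was seen, and it lost its call with no filter on low counts. Of the 7 retinal pigment epithelium markers tested, 2 were lower and 0 higher with edgeR and with DESeq2, against 13.9% and 9.07% of all genes with edgeR, and at an unadjusted p under 0.05 the higher genes numbered 0 with edgeR and 1 with DESeq2. OTX2, an eye transcription factor, had a log2 fold change of -0.64 ± 0.12 (SE, edgeR adjusted p = 0.0029), and EZR, a microvillus protein, one of -0.31 ± 0.10 (SE, edgeR adjusted p = 0.038) that lost its call in 10 of 17 alternative analyses. The channel gene BEST1 was at 1.17 ± 0.56 (SE, edgeR adjusted p = 0.16) and KRT18 at 0.27 ± 0.16 (SE, edgeR adjusted p = 0.27). Without DMSO replicate 1, 2 were lower and 2 higher, the latter BEST1 (1.68, edgeR adjusted p = 0.0096) and KRT8 (0.37, edgeR adjusted p = 0.016). The part of such shifts in the Polycomb values was not tested.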

How the data were processed

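RNA of RPE-1 cells (5 DMSO and 5 SFN replicates) was made into Lexogen QuantSeq 3′ libraries. The authors deposited unnormalized read counts for each Ensembl gene, made with the Bluebee pipeline; the submitters' processing notes name FastQC, STAR, featureCounts, edgeR and the builds hg38 and GRCh38. Whether strand was used in counting is not given in the sources used here.

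Genes were filtered with filterByExpr, scaled by TMM and tested with edgeR's quasi-likelihood test (edgeR 4.0.16, R 4.3.3), with Benjamini-Hochberg adjustment over all 13378 genes tested. The study's limma model with repeated measures was not run. In simulated data of 13225 genes, 58.2% of genes changed by 1 on the log2 scale and 97.9% of those changed by 2 were recovered, with 3.18% false calls. Only 195 genes were changed there, evenly up and down, and no library was made to stand apart. In the real data 23.0% of genes were called and DMSO replicate 1 stood apart, so these rates may not carry over. Alternatives were other scalings and filters, DESeq2 1.42.0, limma-voom (limma 3.58.1), a replicate block and leaving out each library. Ratios used a prior of 0.5 counts. The study describes its replicates as independent without saying that these libraries came from separate cultures, so p-values may measure technical spread; replicate counts differed beyond sampling noise (chi-square per degree of freedom of 3.50 or more).

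The members and lists were chosen with earlier results of these data known. Beside the members, the text names PCGF, PHC, core PRC2 and HP1 genes, the 12 called Polycomb genes with the largest change, up to 4 examples of each marker list, and pattern matches of CBX2. Further genes of these lists are named outside this rule, among them PRC1 genes that did not pass. One gene that this rule picked is not reported here and was left out of the lists.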

Additional observations from a re-analysis of the deposited data

Results flagged for a closer look

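In each group of 5 libraries, the gap between the most extreme library and its nearest neighbour was divided by the range of the group, and a share above Dixon's 95% critical value was taken to set a library apart. Chance gives about 1 in 20 groups, and 15 of 66 groups, from 33 members and named Polycomb genes, had such a library. It was DMSO replicate 1 in 13 of them. It was the highest control for CBX6 (0.872) and EED (0.87), with the share of the range in parentheses. It was the lowest control for EZH1 (0.772), EZH2 (0.821), PHC1 (0.797), PHC3 (0.829), PCGF3 (0.713), PCGF5 (0.762), RBBP4 (0.846), BCOR (0.888), BCORL1 (0.869), KDM2B (0.776) and MBD5 (0.902). SFN replicate 2 stood apart for PCGF2 (0.733) and KDM2B (0.784). For BCOR, BCORL1 and KDM2B, all 5 controls were still above every SFN library. No library stood apart for CBX2, CBX8, CBX7 or RNF2. Polycomb genes named outside the naming rule were not among the 33. YAF2 is an example, with DMSO replicate 1 at 57.9 CPM and the other controls at 13.98 to 16.7 CPM.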

How the results depend on the processing

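The log2 fold change of CBX2 ran from -3.49 to -3.27 over 17 alternatives, that of CBX8 from -2.61 to -2.31 and that of RNF2 from -0.72 to -0.54. CBX7, too low for the filter of a mean of 5 CPM, ran from -0.90 to -0.64 over the other 16. Leaving out each library in turn gave 2383 to 6251 genes called, 4 to 6 members and 14 to 26 other Polycomb genes, in each case the most without DMSO replicate 1. Asking for over 2-fold change as well left 1163 genes, 2 members and 7 other Polycomb genes. The paralog ratios moved by less than the spread between libraries with a prior of 2 counts and without each library.

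Deviations of same-numbered libraries from their group means correlated at 0.05, -0.33, -0.08, 0.04 and 0.56, and 1 of 5 controls correlated best with its own number. DMSO replicate 1 pulls the control mean from which these deviations were taken. The check therefore cannot tell whether the replicate numbers pair the libraries. With the replicate block, 2441 genes, 4 members and 15 other Polycomb genes were called, against 3076, 4 and 15 without it, and the log2 fold change of CBX2 was -3.37 with and without it. Depth limits the low genes, as CBX2 had 9 to 16, CBX7 21 to 34 and CBX8 24 to 38 counts per library in SFN. The cause of the shift without DMSO replicate 1 was not tested.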
